A study of Homo sapiens with 7 samples.

Results

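The nucleosomes examined here are those of the human liver cancer cell line HepG2 that lie within 2 kb of a gene start, described by how densely they were listed, how far apart they were and how regularly they followed each other. They are 244739 of the 14217405 nucleosome positions listed for the genome, or 1.72%, and were chosen because the midpoint of the position was within 2000 bp of the start of a named locus on chromosomes 1 to 22. HepG2 was untreated, and the series holds 7 samples of this line, with 1 sample per assay: RNA-Seq, native MNase-Seq, and ChIP-Seq for 3 marks of active genes (H3K4me3, H3K9ac, H3K27ac) and 2 of repressed chromatin (H3K9me3, H3K27me3). In native MNase-Seq, chromatin that was not crosslinked is digested with micrococcal nuclease, which cuts the DNA between nucleosomes, and the DNA left intact is sequenced. With 1 MNase-Seq sample there was no replicate, so no P value was computed, and the 95% intervals given below cover counting error over positions or genes and not the spread between cultures. A listed position is a call of a peak in the coverage, and the lists give neither reads nor occupancy, so the depth behind a position is unknown.

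There were 13273 gene starts, each a named locus with coordinates of its own. They were grouped by the mean FPKM (fragments per kilobase of transcript, scaled to the number of fragments in the library) of the 2 RNA-Seq columns into 5455 genes under 0.1, here termed silent, 1431 genes from 0.1 to 1, 2762 genes from 1 to 10 and 3625 genes over 10. The windows of these 4 classes held 102299, 27897, 50899 and 67718 positions, and 8488 positions lay in the windows of at least 2 genes. Another 7773 named loci on these chromosomes share their coordinates with a further locus and were left out of the main values. The expression table has no strand, and the strand inferred from the order of the loci matched that of the RefSeq promoter of the same symbol for 9064 of 9113 genes (99.5%). A locus start is the outermost start of all transcripts in the locus, so a gene that mostly uses an inner promoter is centred on the wrong point.

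A nucleosome is DNA wound around a core of histones, and the distance from the middle of a nucleosome to the middle of the next is the repeat length. At the promoters of active genes a stretch of DNA is kept largely free of nucleosomes, so that transcription factors and RNA polymerase II can bind. The first nucleosome after the start, the +1 nucleosome, is usually well placed, and those that follow (+2, +3 and so on) form an array whose regularity fades with distance. H3K4me3 and the acetylation marks H3K9ac and H3K27ac are typical of nucleosomes beside active starts, H3K27me3 is deposited by Polycomb at repressed genes, and H3K9me3 belongs to heterochromatin.

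Promoters also differ in sequence. CpG islands, rich in the dinucleotide CG, surround the starts of most widely expressed genes, while many genes of a single tissue start in DNA with few CG. The sequences below show promoters with many and with few CG at 5 genes described further down, which differ in expression and were chosen after their values were seen from the genes named by rule whose locus length was close to that of the RefSeq gene. They are the 250 bases before the RefSeq start, taken from RefSeq (GRCh38.p14), read 5′ to 3′ on the strand of the gene, with each CG in capitals.
EEF1A1, chr6:73521033-73521282, minus strand: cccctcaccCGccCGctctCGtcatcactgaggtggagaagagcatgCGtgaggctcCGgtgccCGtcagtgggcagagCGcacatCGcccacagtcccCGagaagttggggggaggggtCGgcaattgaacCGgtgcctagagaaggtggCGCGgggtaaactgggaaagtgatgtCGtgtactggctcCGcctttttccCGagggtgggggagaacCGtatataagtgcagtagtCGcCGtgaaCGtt
HHEX, chr10:92689705-92689954, plus strand: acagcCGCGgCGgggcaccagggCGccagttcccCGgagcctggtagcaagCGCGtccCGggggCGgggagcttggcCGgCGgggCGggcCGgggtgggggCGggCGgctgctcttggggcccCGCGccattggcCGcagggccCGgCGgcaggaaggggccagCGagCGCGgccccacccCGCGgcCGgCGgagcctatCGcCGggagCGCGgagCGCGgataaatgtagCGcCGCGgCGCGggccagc
HOXD8, chr2:176129455-176129704, plus strand: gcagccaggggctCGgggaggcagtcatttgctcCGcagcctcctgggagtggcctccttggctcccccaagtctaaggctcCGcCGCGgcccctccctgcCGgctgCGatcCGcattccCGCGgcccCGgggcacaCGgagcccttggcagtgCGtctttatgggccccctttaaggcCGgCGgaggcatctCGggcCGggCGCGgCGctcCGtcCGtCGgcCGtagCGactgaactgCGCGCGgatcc
APOA2, chr1:161223629-161223878, minus strand: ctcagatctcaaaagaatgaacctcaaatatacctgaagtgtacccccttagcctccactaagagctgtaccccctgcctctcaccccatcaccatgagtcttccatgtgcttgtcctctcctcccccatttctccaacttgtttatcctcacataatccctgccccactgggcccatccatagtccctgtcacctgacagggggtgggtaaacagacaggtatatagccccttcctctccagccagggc
APOH, chr17:66229416-66229665, minus strand: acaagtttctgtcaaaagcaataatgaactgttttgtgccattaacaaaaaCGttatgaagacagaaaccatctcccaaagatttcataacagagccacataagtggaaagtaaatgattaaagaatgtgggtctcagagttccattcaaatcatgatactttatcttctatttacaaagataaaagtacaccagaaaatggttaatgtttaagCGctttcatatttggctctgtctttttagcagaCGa
EEF1A1 encodes a translation elongation factor needed in every cell, and its promoter had 20 CG and 61.6% GC. HHEX, a homeobox transcription factor of early liver, had 38 CG. HOXD8, a body-axis homeobox gene at an FPKM of 0, had 28 CG. The promoter of APOA2, an apolipoprotein of high-density lipoprotein made by the liver, had 0 CG, and that of APOH, a liver-made plasma glycoprotein, had 3. Among the 35116 RefSeq promoters of this length the median was 11 CG, and 93.9% held at least 1.

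The RNA-Seq had the markers of the labelled cell. All 8 hepatocyte markers were found, with a summed FPKM of 16787, while 4 muscle markers summed to 0.0289, 4 blood markers to 0.325 and the keratinocyte marker KRT5 was listed at 0. The largest value among 5 markers of neurons and glia was 2.75 for MBP. The FPKM summed to 857059 and 982212 in the 2 columns, and 94.9% of the genes fell in the same class in either column. The mean density of positions within 2 kb of gene starts ranged over chromosomes from 4.38 per kb on chromosome 8 to 5.36 per kb on chromosome 20. Chromosome numbers in HepG2 are known to be unequal, and their part in this range was not tested.

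Nucleosome positions were sparser around the starts of expressed genes than around those of silent genes. From 200 bp upstream to the start, silent genes had 4.54 positions per kb (95% Poisson interval 4.42 to 4.67), genes with an FPKM from 0.1 to 1 had 4.09 (3.86 to 4.33), genes from 1 to 10 had 3.10 (2.95 to 3.25) and genes over 10 had 3.06 (2.93 to 3.19). The intervals of the lower 2 classes did not overlap each other or those of the upper 2 classes, while the upper 2 classes overlapped. In genes over 10 the lowest density lay just after the start. From 0 to 100 bp downstream the values were 4.43, 3.98, 2.48 and 2.12 per kb in the same order of classes. Compared with 1 to 2 kb upstream, genes over 10 were 59.6% lower there, and silent genes were 9.95% lower.

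Away from the start the order was the other way round. From 2 kb to 1 kb upstream the classes had 4.92, 5.12, 5.14 and 5.26 positions per kb from the lowest to the highest expression, and in windows centred 10 kb upstream they had 4.92, 5.07, 5.15 and 5.24. The dip reached further downstream than upstream: from 200 to 500 bp downstream, genes over 10 had 3.87 per kb, or 73.6% of their far upstream density, against 4.83 per kb from 500 to 200 bp upstream. From 500 to 1000 bp downstream they were at 88.5% of the far upstream density, and silent genes were at 97.5%.

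Only part of the genes had 200 bp free of midpoints directly upstream of the start. A start without such a stretch can still lie in a long gap, which is measured further down. Among genes over 10, 1624 of 3625 (44.8%, exact binomial interval 43.2 to 46.4) had no position with its midpoint in the 200 bp upstream of the start. Where the locus length was within 50 bp of that of the RefSeq gene, the number was 461 of 717 (64.3%, 60.7 to 67.8), a set chosen after seeing the data. Over all genes of a class, the share was 44.6% for genes from 1 to 10, 28.7% for genes from 0.1 to 1 and 22.2% for silent genes. Over the whole 4 kb window the numbers were close, with 19.3 ± 4.91 positions per silent gene (SD over genes) and 19.1 ± 2.41 per gene over 10. The wider spread of silent genes included 97 genes with no position at all in the window, against 2 of the genes over 10.

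Within the top class, the density just upstream of the start fell in small steps with expression, while the median gap hardly changed. Overlapping intervals do not exclude a trend, and a trend of the density was not tested. From 200 bp upstream to the start, genes with an FPKM from 10 to 30 had 3.18 positions per kb, genes from 30 to 100 had 2.95 and genes over 100 had 2.77, and the intervals of all 3 overlapped (3.01 to 3.35, 2.73 to 3.19 and 2.42 to 3.15). From 0 to 100 bp downstream they had 2.09, 2.18 and 2.15. The median gap over the start, defined below, was 374.5, 379 and 370 bp in these groups of 2084, 1131 and 410 genes, also with overlapping intervals.

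**Figure D1:**
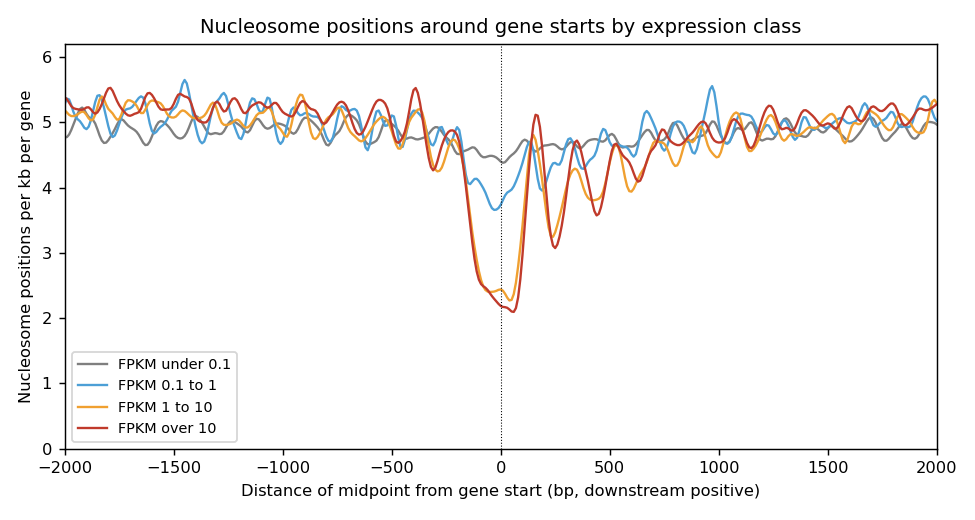
Nucleosome positions per kb per gene (vertical axis) against the distance of the midpoint from the gene start in bp (horizontal axis, downstream positive), smoothed with a Gaussian of 20 bp SD, with a line for each FPKM class. Genes over 10 fall to 2.09 per kb at 57 bp downstream and then show peaks at 164, 348 and 527 bp, while silent genes stay at or above 4.38 per kb within 300 bp of the start.

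In the smoothed profile of genes over 10, the +1 nucleosome stood out as a peak of 5.13 positions per kb at 164 bp downstream. Further maxima followed at 348, 527, 744 and 928 bp. Each maximum was compared with the trough after it, and the ratio was 1.67 for +1, 1.32 for the maximum at 348 bp, 1.14 for that at 527 bp and 1.05 for that at 744 bp, so the array faded within these 4 maxima. Genes from 1 to 10 had maxima at 150, 342, 530 and 712 bp with a first ratio of 1.48. Genes from 0.1 to 1 had a first maximum at 135 bp with a ratio of 1.19, and silent genes had a ratio of 1.04 at 111 bp. Upstream of genes over 10 the maxima lay at -224, -392, -556 and -731 bp, and the highest was the one at -392 bp, with 5.53 per kb.

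The gap over the start was measured for each gene as the distance between the midpoint of the last position before the start and that of the first position at or after it. Its median was 220 bp (95% interval 217 to 225) for silent genes, 255 bp (245 to 265) for genes from 0.1 to 1, 362 bp (355 to 370) for genes from 1 to 10 and 375 bp (367 to 380) for genes over 10. A gap that covers a chosen point tends to be longer than a gap picked from a list, so the same measure was taken at points 10 kb from each start. There the medians were 195 to 205 bp in all classes on either side. The silent genes thus exceeded their own control points (205 bp on either side) by 15 bp, and the genes over 10 exceeded theirs (200 and 195 bp) by 175 and 180 bp.

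Gaps over 300 bp covered the start in 26.8% of silent genes, 39.3% of genes from 0.1 to 1, 61.4% of genes from 1 to 10 and 66.0% of genes over 10. At the control points the share was between 13.1% and 19.5%. Gaps over 1000 bp had another order: they were most frequent in silent genes, with 5.94%, and least frequent in genes over 10, with 1.96%. At the control points 10 kb upstream the silent genes also had the largest share of such gaps, 4.84%, against 0.690% for genes over 10.

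**Figure D2:**
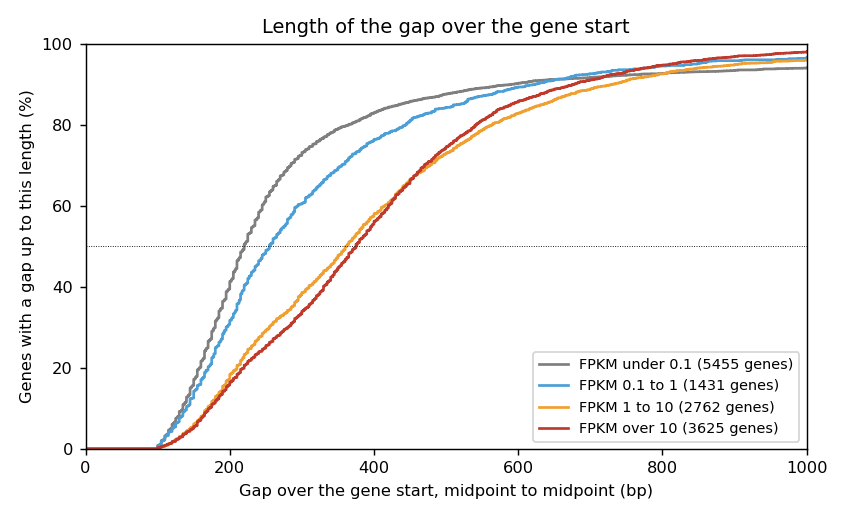
Share of genes in percent (vertical axis) whose gap over the gene start, midpoint to midpoint, is no longer than the length in bp on the horizontal axis, with a line for each FPKM class and a dotted line at 50%. The lines of the upper 2 classes cross 50% at 362 and 375 bp, those of the lower 2 at 220 and 255 bp, and beyond about 800 bp the silent genes fall below the others.

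The longer gap in genes over 10 was found on each of the 22 chromosomes, where its median exceeded that of silent genes by 124 to 219 bp, and the density from 200 bp upstream to the start was lower on each of them as well. The gap was nearly centred on the start: in genes over 10 the last position upstream lay at a median of -186 bp and the first downstream at 169 bp, and in silent genes at -111 and 110 bp. The depth of the dip moved with the choice of starts. Among the 3629 genes of all classes whose locus length was within 50 bp of that of the RefSeq gene, the 717 over 10 had 1.86 positions per kb from 200 bp upstream to the start and a median gap of 410 bp, and the 2052 silent genes had 4.69 per kb and 213 bp. With the loci that share coordinates included, genes over 10 had 3.45 per kb and a gap of 340 bp.

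Between neighbouring positions downstream of the start, the median distance differed between the classes by a few bp. From 0 to 2 kb downstream it was 180 bp (178 to 180) in silent genes and 180 bp in genes from 0.1 to 1. Genes from 1 to 10 had 185 bp and genes over 10 had 183 bp (182 to 185). From 0 to 1 kb downstream the medians were 175 bp (175 to 177), 180, 187 and 187 bp (185 to 189) in the same order of classes. The distribution around the median from 0 to 2 kb also differed. Distances over 300 bp made up 7.68% (7.44 to 7.93) in silent genes and 10.9% (10.6 to 11.3) in genes over 10, and distances under 140 bp, which mean overlapping positions, made up 23.4% and 20.2%. Farther downstream, from 2 to 4 kb from the start, genes over 10 had a median of 173 bp, 6.37% over 300 bp and 25.5% under 140 bp. Neighbours thus lay closer there than near the start. Over all neighbouring positions on chromosomes 1 to 22 the median was 178 bp.

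The wide distances sat at the beginning of the array. In genes over 10 the distance from +1 to +2 had a median of 205 bp (202 to 208), from +2 to +3 it was 195 bp, from +3 to +4 it was 190 bp and from the eighth position onwards to the next it was 178 bp. In silent genes the median was 190 bp (188 to 192) from +1 to +2 and 183 bp from the eighth position to the next. More than 300 bp separated +1 from +2 in 23.6% of genes over 10 (22.19 to 24.97) and 23.9% of genes from 1 to 10, against 14.3% (13.3 to 15.2) of silent genes. At the eighth position the order was reversed, with 7.54% in genes over 10 and 9.68% in silent genes. Upstream, the distance from -1 to -2 had a median of 187 bp in genes over 10 and exceeded 300 bp in 11.0% (10.04 to 12.10), beside the 23.6% between +1 and +2. At a gene centred on an outer start, the gap of an inner promoter is counted among the downstream distances. Its part in these values was not tested.

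The regularity of the array was read from the distances between all pairs of positions on the same side of a start, not only neighbours. In genes over 10, downstream, these distances were most frequent at 168, 361, 540 and 725 bp, and a line through the 4 peaks gave a repeat length of 185 bp. In silent genes the peaks lay at 161, 376, 578 and 761 bp with a repeat length of 200.2 bp. Genes from 0.1 to 1 and from 1 to 10 had 202.9 and 187.4 bp. Upstream of the start the repeat length was 199.3 bp in silent genes and then 189.3, 184 and 183.6 bp with increasing expression. The repeat length of silent genes was less certain than that of genes over 10, since leaving out the first peak gave 192.5 bp in place of 200.2 bp. For genes over 10 that choice gave 182 bp.

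Farther downstream the peaks of genes over 10 were weak. These windows were set by distance from the start alone. Only 11917 of the 13273 genes had a locus of at least 2 kb, so part of this DNA lies past the end of a gene. From 2 to 4 kb downstream, genes over 10 had a repeat length of 205.3 bp and their second peak was 1.07 times the trough after it, against 1.26 times within 2 kb downstream and 1.38 times within 2 kb upstream. At 8 to 10 kb downstream the repeat length was 193.9 bp and the ratio 1.09. Silent genes kept nearly the same ratio at all distances, with 1.21 within 2 kb downstream, 1.23 upstream, 1.19 from 2 to 4 kb and 1.19 from 8 to 10 kb. From 2 kb onwards the array of genes over 10 was thus less regular by this measure than that of silent genes.

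H3K4me3 was the mark most often found on the nucleosomes that border the gap. Each peak belongs to a listed position, so a mark could be counted per position. In genes over 10, H3K4me3 was carried by 77.0% of +1 positions, 82.9% of +2, 79.8% of +3 and 35.3% of the sixth. On the other side of the gap, 53.3% of -1 positions and 11.2% of those at -4 carried it. The share at +1 was 72.3% in genes from 1 to 10, 31.7% in genes from 0.1 to 1 and 6.29% in silent genes.

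In genes over 10, H3K27ac had its own maximum at +1, with 71.5% of +1 positions, 69.6% of +2 and 52.7% of +3. At +1 it was still the least frequent of the 3 marks of active genes. H3K9ac was highest at +2, as H3K4me3 was, with 72.6% at +1, 76.7% at +2 and 67.1% at +3. H3K27me3 was found on 3.39% of +1 positions of silent genes and 0.0552% of those of genes over 10, and H3K9me3 on 0.550% and 0.276%. Since a mark can be counted only where a position is listed, the DNA inside the gap has no value. The authors also filtered peaks by their shape within a position, and the part of that filter in the shares beside the gap was not tested.

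**Figure D3:**
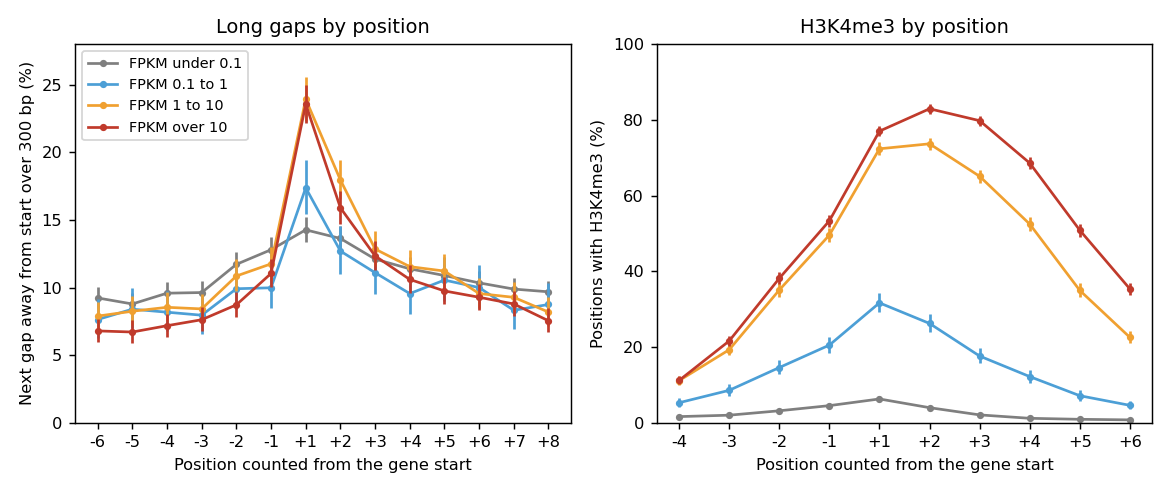
Left, share of genes in percent in which the distance from a position to the next one away from the start exceeds 300 bp. Right, share of positions in percent that carry an H3K4me3 peak. Both are plotted against the position counted from the gene start (-1 is the last before it, +1 the first after it), with a line for each FPKM class and vertical bars for exact 95% binomial intervals. The upper 2 classes peak at +1 on the left, at 23.9% and 23.6%, and at +2 on the right.

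In all 4 classes the median gap was longer at genes with H3K4me3 near the start. Of the 3625 genes over 10, 3427 had an H3K4me3 position within 2 kb of the start, and their median gap was 385 bp (377 to 391), while the other 198 had a median of 200 bp (188 to 223), close to the 200 and 195 bp at their class's control points. Of the silent genes, 653 had such a position and a median gap of 282 bp (268 to 295), against 215 bp (210 to 218) for the remaining 4802. In the classes from 0.1 to 1 and from 1 to 10 the medians were 314 and 380 bp with such a position and 220 and 215 bp without. The 701 silent genes with H3K27me3 and without H3K4me3 had 225 bp. Where the listed start is not the one mainly used, both the mark and the gap can lie elsewhere. The part of such genes in these values was not tested.

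The repeat length split in the same way. Over all classes it was 185.5 bp downstream of the 7220 starts with H3K4me3 within 2 kb and 205.2 bp downstream of the 6053 without. The 653 silent genes with H3K4me3 had 186.9 bp and the 198 genes over 10 without it had 198.6 bp. Distances between neighbours went the other way: where both carried H3K4me3 in genes over 10, the median was 190 bp and 15.1% were over 300 bp, and where neither carried H3K4me3, H3K9ac or H3K27ac, it was 170 bp and 5.20%. The marked pairs lie closer to the start, so mark and distance cannot be told apart here. The repeat lengths have no interval, and leaving out the first peak moved that of all silent genes from 200.2 to 192.5 bp.

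Sequence was compared for the 6844 genes, 51.6% of the 13273, with exactly 1 RefSeq promoter on the same strand. The match was by symbol, chromosome and strand, so the RefSeq start need not be the locus start at which the gap was measured. As fewer than 80% were matched, the values hold for these genes and not for the classes as a whole. A promoter was classed as CpG-rich if its 250 bases had at least 55% GC and a ratio of observed to expected CG of at least 0.65. CpG-rich promoters made up 25% of the matched silent genes, 45.0% and 69.4% of the middle classes and 77.1% of genes over 10.

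In every class the gap was longer at CpG-rich promoters. Among silent genes it was 285 bp (270 to 300) at 662 CpG-rich promoters and 205 bp (200 to 208) at 1986 others, and the latter value was also that of the control points of the class. Among genes over 10 it was 400 bp (390 to 415) at 1581 CpG-rich promoters and 331.5 bp (320 to 350) at 470 others. From 200 bp upstream to the start, silent genes had 3.65 positions per kb at CpG-rich and 5.01 at other promoters, and genes over 10 had 2.64 and 3.57. H3K4me3 lay within 2 kb of 27.8% of the CpG-rich silent genes and 5.74% of the others. The median GC content was 71% and 48.4% in these silent genes, and the part of GC content in digestion and sequencing was not tested.

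Promoter motifs were searched on both strands of the same 250 bases. GGGCGG, the core of the GC box and overlapping with CpG content, was in 42.6% of all RefSeq promoters, and genes over 10 had a median gap of 395 bp with it and 352 bp without. CCAAT, in 32.0% of all promoters, went with 415 bp (398 to 430) against 362.5 bp (353 to 375) in genes over 10. In genes from 1 to 10 it went with 400 bp (380 to 423) against 355 bp (342 to 368). In genes from 0.1 to 1 the values were 235 bp (215 to 265) and 267.5 bp (246 to 283), with overlapping intervals. In silent genes they were 215 bp with and without it. TATAAA, in 10.7% of all promoters, went with a shorter gap in genes over 10, at 338 bp (310 to 368) in 107 genes against 385 bp (375 to 395) in 1944 genes. A run of AAAAAAAA, in 5.15% of all promoters, went with 342.5 bp (310 to 375) in 74 genes over 10 against 383 bp (375 to 395) without it, and with 370 bp against 370 bp in genes from 1 to 10. For comparison, all genes over 10 whose promoter was not CpG-rich had 331.5 bp (320 to 350). No motif was compared within CpG-rich or other promoters, so motif and CpG content cannot be told apart here. A match is a description of letters and does not show that a factor bound there.

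Groups of genes with a shared function are described next, beside the median gap of 281 bp and the 46.0% of gaps over 300 bp for all 13273 genes. The liver plasma protein genes, which encode the secreted proteins that hepatocytes make in bulk, had a shorter median gap than either of the 2 upper classes, to which all of them belong, 21 over 10 and 4 from 1 to 10. Of 30 listed genes 25 were analysed, with a median FPKM of 297.5 and a median gap of 235 bp (197 to 270), and 6 of 25 exceeded 300 bp. The lowest gap was 100 bp and the highest 565 bp. The medians of the 2 classes were 375 and 362 bp, and that of all 410 genes with an FPKM over 100 was 370 bp. H3K4me3 lay within 2 kb of 17 of the 25, beside 7220 of all 13273 genes and 3427 of 3625 genes over 10. Of the 10 with a matched promoter 0 were CpG-rich, beside 52.1% of all matched genes and 77.1% of those over 10. The 6 liver plasma protein genes whose locus length was within 50 bp of that of the RefSeq gene had a median of 317.5 bp, from 138 to 462 bp, so the median of the list moved with the choice of starts.

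ALB, serum albumin, was the most highly expressed gene, with an FPKM of 9933 and 10088 in the 2 columns. Its locus is listed on chromosome 4 from 74269689 to 74287767 (hg19, plus strand), and positions at -153 and 117 bp left a gap of 270 bp over the start. AFP, the fetal counterpart of albumin, lies next to it from 74301932 and had an FPKM of 3798, with positions at -11 and 124 bp and a gap of 135 bp. At APOA2, with an FPKM of 5209 and the promoter without CG shown above, positions at -243 and 132 bp left a gap of 375 bp, and +2 to +4 followed at 307, 492 and 607 bp. Of its 22 positions within 2 kb, 12 carried H3K4me3 and 19 carried H3K27ac. APOH had positions at -247 and 215 bp and a gap of 462 bp. RBP4, which carries retinol in plasma, had the longest gap of the list, 565 bp, from -48 to 517 bp.

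Housekeeping genes, which all cells use, had long gaps. The median of 15 genes (of 24 listed) was 450 bp (254 to 580), from 165 to 737 bp, and 11 of 15 were over 300 bp. All 15 had H3K4me3 within 2 kb, beside 3427 of 3625 in their class, and 9 of 11 matched promoters were CpG-rich, beside 77.1% in their class. At EEF1A1, with an FPKM of 3740, the gap was 533 bp, from -409 to 124 bp, and was followed by evenly placed positions at 294, 454 and 614 bp. At GAPDH, a glycolytic enzyme gene, the gap of 737 bp ran from -290 to 447 bp, and at PSMB2, a proteasome subunit gene, that of 717 bp ran from -128 to 589 bp. APOA2, EEF1A1, GAPDH and CEBPA have another gene start within 4 kb, so not all positions in their windows need belong to them. The median FPKM of the housekeeping list was 188.2, lower than that of the liver plasma protein list, while the intervals of the median gaps overlapped (254 to 580 and 197 to 270 bp).

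The median gap of ribosomal protein genes lay between those of these lists, while their median FPKM was above both. Of 84 loci with such a symbol 34 were analysed, with a median FPKM of 982.6, a median gap of 385 bp (310 to 426) and 24 of 34 gaps over 300 bp. RPL37A had a gap of 200 bp at an FPKM of 3031, and RPL26 one of 709 bp at 1199. Reads of ribosomal protein genes can be shared with their pseudogenes, so their FPKM is less certain. Of 12 hepatocyte transcription factor genes only 8 were analysed, with a median of 307.5 bp and a range from 130 to 597 bp. The longest was at HHEX, from -314 to 283 bp, beside the promoter with 38 CG. At CEBPA, a master regulator of liver metabolism, a gap of 428 bp from -279 to 149 bp was followed by +1 and then by a second stretch of 1060 bp without a listed position, up to 1209 bp.

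Genes of other cell types and HOX genes had low expression and short median gaps. The 12 genes of other cell types, 8 of them under 0.1, had a median of 233 bp (160 to 495), and 9 HOX genes (of 23 loci), 6 of them under 0.1, had one of 227 bp (191 to 455). Long gaps occurred among them as well. MBP, a myelin protein gene and the most highly expressed of the other cell types at an FPKM of 2.75, had a gap of 600 bp and 5 H3K4me3 positions of 14. KRT5, a keratin of squamous epithelium listed at an FPKM of 0, had a gap of 770 bp from -78 to 692 bp and no mark on its 19 positions. MYOD1, the master gene of muscle, had 495 bp and no mark. HOXD8, with the CG-rich promoter shown above, had 455 bp and no mark, and HOXA13 had 592 bp with 4 H3K4me3 positions of 18. The 333 olfactory receptor genes, which are expressed in the nose, had a median of 205 bp (192 to 215), 19.8% over 300 bp and 0 genes with H3K4me3 within 2 kb.

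The 2 remaining lists are gene families. The 337 ZNF genes, which encode zinc finger proteins, had a median FPKM of 2.45, a median gap of 345 bp (330 to 362) and 61.4% over 300 bp, close to the 362 bp of all genes from 1 to 10. At ZNF664, the most highly expressed of them, the gap was 1317 bp, and another gene start lies within 4 kb. The 40 replication-dependent histone genes had a median of 262.5 bp (205 to 390), and 28 of them had another start within 4 kb. A histone or ZNF gene resembles its relatives in sequence, which makes unique placement of reads harder.

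**Figure D4:**
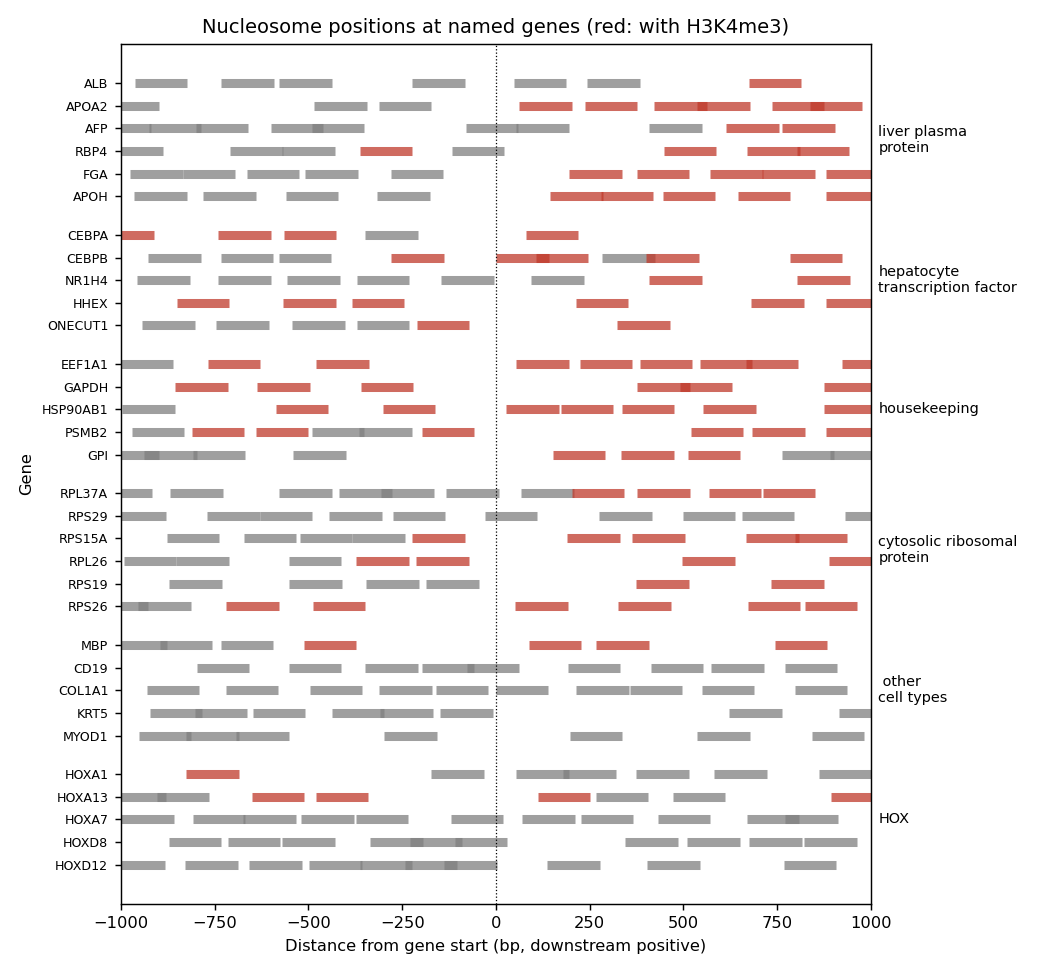
Listed nucleosome positions (bars of 140 bp, red where the position carries an H3K4me3 peak, grey where it does not, darker where bars overlap) within 1000 bp of the start of 32 named genes in 6 lists (vertical axis), against the distance from the gene start in bp (horizontal axis, downstream positive). The housekeeping genes GAPDH, PSMB2 and GPI have gaps of 737, 717 and 693 bp over the start, and ALB and AFP have gaps of 270 and 135 bp.

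The 5 longest gaps among genes over 10 were at PI4KAP2, where no position was listed within 20 kb upstream, NPIPL3 with 13225 bp, PKD1P1 with 9470 bp, the locus of AGAP8 and PARG with 5090 bp, and RHOU with 4465 bp. Each had 0 or 1 position within 2 kb of the start and no marked position. PI4KAP2 and PKD1P1 are pseudogenes, and the NPIP and AGAP genes belong to families with near-identical copies on their chromosomes. Among silent genes, the copies of OR4F29 and of HIST2H3A likewise had 0 or 1 position within 2 kb. The share of reads that could be placed uniquely at these loci is not known from the files, so a gap of this length cannot be told apart from DNA without placed reads.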

How the data were processed

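The 7 HepG2 samples of 1 assay each were grouped by the assay in the labels. The deposited MNase-Seq file lists nucleosome positions that the authors called with DANPOS at default parameters, each 140 bp wide. The 5 ChIP-Seq files list peaks that the authors called at these positions with NUCLIZE. It tested each peak against input and against the local ChIP background (P and FDR of at most 0.01, at least 4-fold). The paper states that it also removed peaks of oblique or U shape within a position. The submitters' processing notes name BWA, Bowtie, TopHat2 2.1.0, HOMER 4.7, edgeR and hg19. The authors deposited RNA-Seq as FPKM in 2 columns, whose mean was used as 1 sample. The p-values and q-values of their own comparison of these columns were not used. No read counts are given, so depth is unknown.

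Positions were oriented by the strand of the locus. For the smoothed profile and the distances between all pairs a Gaussian of 20 bp SD was used, and peaks of the pair distances were taken as the highest points from 110 to 260, 290 to 440, 470 to 620 and 650 to 810 bp, after division by the room available in the window. Gaps were searched to 20 kb on either side. Intervals are exact 95% intervals (Poisson for densities, Clopper-Pearson for shares, binomial order statistics for medians), which treat genes and positions as independent although neighbours share DNA. Every one of the 319086 peaks lay nearest to the position whose identifier it carries. The calculations ran in Python 3.11.15 (scipy 1.17.1, numpy 2.4.6, pandas 2.3.3; figures, matplotlib 3.10.9) and were tested on simulated data.

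From each gene list the 3 genes with the highest FPKM and the 3 with the longest gap were eligible to be named, with the 5 longest gaps at an FPKM over 10 and the 5 highest FPKM of all. Alternatives were either column alone, other class limits, genes without a neighbouring start, shared coordinates included, loci of at least 2 kb, overlapping positions dropped, less smoothing, 100 bp upstream and another match of H3K4me3. Alternatives by odd and even chromosomes, by locus length and by peaks 2 to 4 were chosen after seeing the data. The members and lists were chosen with earlier results of these data known.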

Additional observations from a re-analysis of the deposited data

How the results depend on the processing

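Of 108 values under alternatives for 10 results, 74 stayed within the 95% interval of the reported value (or within the 5 bp step of the listed coordinates where there is no interval), and 34 moved. The density from 200 bp upstream to the start was lower in genes over 10 than in silent genes under all 11 alternatives, the gap over the start longer under all 10 and the repeat length shorter under all 12, by 10.5 to 24.5 bp, while the median distance between neighbours was longer under 8 of 10 and equal under the others.

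For genes over 10, the density moved to 2.90 per kb with limits of over 30 and of 0 in both columns, 3.26 without genes with another start within 4 kb, 3.45 with shared coordinates, 2.73 with overlapping positions dropped, 2.38 over 100 bp and 1.86 with matching locus lengths. Their gap over the start moved to 362 bp without neighbouring starts, 340 with shared coordinates, 388 with overlapping positions dropped, 385 on odd and 365 on even chromosomes and 410 with matching lengths. The distance between neighbours moved to 180 bp with the other limits, with shared coordinates and on even chromosomes, and to 215 with overlapping positions dropped. The +1 peak moved to 149 bp with matching lengths. The share of +1 with H3K4me3 moved to 75.5% without neighbouring starts, 63.7% with shared coordinates and 89.7% with matching lengths.

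For silent genes, the density moved to 4.71 per kb with the other limits, 3.78 with overlapping positions dropped and 4.69 with matching lengths, and the gap to 211, 260 and 213 bp in that order and 215 on even chromosomes. The repeat length moved to 194 bp with overlapping positions dropped, 205.6 on even chromosomes, 208 with matching lengths and 192.5 from peaks 2 to 4. The distance between neighbours moved to 177, 215 and 177 bp with the other limits, overlapping positions dropped and matching lengths. Dropping overlapping positions removes the short distances by construction, and for the other moves the cause was not tested. Without scores a stricter call of positions could not be set. No paired analysis was possible because each assay has 1 sample.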
